A study of Mus musculus with 33 samples.

Results

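The genes described here carry MHC class I antigen presentation, the route by which a cell shows fragments of its own proteins to cytotoxic T cells. They were taken as a list of 10 genes by name, out of 54146 gene identifiers in the count files: the light chain gene B2m, the heavy chain genes H2-K1, H2-D1 and H2-Q7, the peptide transporter and loading genes Tap1, Tap2 and Tapbp, the immunoproteasome genes Psmb8 and Psmb9, and the regulator Nlrc5. All 10 passed the filter on low counts in all 11 comparisons. Their levels were read in 33 RNA-seq libraries of microglia, the resident macrophages of the brain, sorted by FACS from C57BL/6 mice.

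Proteins are cut by the proteasome, whose catalytic subunits are replaced by Psmb8 and Psmb9 when the immunoproteasome is assembled. The peptides are moved into the endoplasmic reticulum by the Tap1 and Tap2 transporter, and tapasin (Tapbp) holds an empty heavy chain paired with beta-2-microglobulin (B2m) beside it until a peptide binds. Nlrc5 is the transactivator of class I promoters, and interferon regulatory factors bind interferon-response motifs of many of these genes. Irf8 is such a factor, expressed mainly in immune cells, and microglia depend on it for their normal gene programme.

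On GRCm38, B2m (ENSMUSG00000060802.8) lies on chromosome 2 at chr2:122147686-122153083 and Nlrc5 (ENSMUSG00000074151.13) on chromosome 8 at chr8:94434356-94527272. The other members lie in the MHC of chromosome 17, and Psmb9 (chr17:34181987-34187764), Tap1 (chr17:34187553-34197225), Psmb8 (chr17:34197721-34201454) and Tap2 (chr17:34203527-34216321) sit next to each other there. Psmb9 and Tap1 run in opposite directions and share 212 exonic bases, and the counts ignore strand. Tapbp is at chr17:33915899-33929292, H2-K1 at chr17:33996017-34000347, H2-D1 at chr17:35262730-35267499 and H2-Q7 at chr17:35439155-35443773.

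The 33 libraries fell into 10 groups in 4 experiments. WT mice and mice with a germline knockout of Irf8 (IRF8KO) were profiled at 3 months, with 4 libraries each. At 9 months there were 3 libraries each of WT, IRF8KO, 5xFAD and 5xFAD/IRF8KO. The 5xFAD mice are an amyloid model of Alzheimer's disease, with mutant human transgenes under the neuronal Thy1 promoter, and their genotype label reads 5xFAD/WT. Batf3KO mice (Batf3-/-) and a WT group of their own were profiled at 3 months, with 3 libraries each. In the conditional experiment at 3 months, 3 libraries came from IRF8flox mice (flox) and 4 from IRF8floxCx3cr1CreERT2 mice (Cre). Tamoxifen was given to both of these groups for 5 days starting at P12, so the deletion depended on an inducible Cre expressed from Cx3cr1, and the design text names a Rosa26LSL-EYFP reporter by which microglia were sorted. The labels do not state which exons the germline allele lacks. They speak of microglia taken from each brain but tie no library to an animal, so p-values measure the spread between these libraries.

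Gene counts per library ran from 605376 (WT at 9 months) to 18357762 (Batf3KO). Irf8 transcripts were reduced but not absent in the germline knockout, at 104 to 185 CPM (counts scaled to library size) against 253 to 333 in WT at 3 months. At 9 months they stood at 15.9 to 138 CPM in IRF8KO and 77.7 to 98.9 in 5xFAD/IRF8KO, against 500 to 583 in WT and 522 to 662 in 5xFAD. In the conditional experiment the flox libraries had 1050, 1190 and 953 CPM, and those labelled Cre had 1130, 412, 346 and 481, so the library labelled Cre replicate 1 went against its label. The libraries also differed in markers of other cells. The 12 microglial markers summed to 7.39% of gene counts in WT and 6.3% in 5xFAD at 9 months, but to 0.748% in IRF8KO and 0.805% in 5xFAD/IRF8KO. The 13 neutrophil markers summed to 0.000214% and 0.000145% in the former pair and to 8.18% and 12% in the latter, with all 13 at 5 CPM or more on average in both IRF8KO groups. At 3 months the neutrophil sum was 3.86% in WT and 10.7% in IRF8KO. Red blood cell markers summed to 2.38% to 15.8% in IRF8KO and 1.4% to 9.03% in 5xFAD/IRF8KO at 9 months, and to at most 0.00529% in WT and 5xFAD at that age. At 3 months the same sum ran from 3.05% to 10.3% in WT, compared with 0.909% to 9.04% in IRF8KO. Monocyte markers went from means of 0.000473% (WT) and 4e-04% (5xFAD) to 1.02% (IRF8KO) and 1.35% (5xFAD/IRF8KO), and border macrophage markers from 0.00112% and 0.00195% to 0.0681% and 0.0839%. Oligodendrocyte markers stood at 0.0258% and 0.0225% against 0.889% and 0.534%. At 3 months, WT against IRF8KO means were 0.144% and 0.853% for monocyte, 0.00842% and 0.108% for border macrophage and 2.56% and 1.94% for oligodendrocyte markers. In such bulk libraries fewer cells of a type and less RNA per cell cannot be told apart, and the part of these other cells in the differences between germline groups given below was not tested. All labels read female, yet Y-linked transcripts reached 10 CPM in 3 of 4 WT and 4 of 4 IRF8KO libraries at 3 months. At 9 months they did so in 3 of 3 WT, 2 of 3 IRF8KO, 1 of 3 5xFAD and 3 of 3 5xFAD/IRF8KO libraries. The X-linked transcript Xist reached 10 CPM in 2 of 3 libraries each of IRF8KO, 5xFAD and 5xFAD/IRF8KO at 9 months. It did so in no WT library at 9 months and in no germline library at 3 months. IRF8KO replicate 3 (40.8 CPM Y-linked, 184 CPM Xist) and 5xFAD/IRF8KO replicates 1 (269, 39.5) and 3 (230, 23.5) held both. In the Batf3KO and conditional experiments all libraries reached it for Xist and none for Y-linked transcripts.

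The promoters of the 4 chain genes are shown because they share a layout that the other members with a sequence did not. Sequences were matched by symbol in a RefSeq table on GRCm38.p6 for 8 of the 10 members, all but Tap2 and Nlrc5. The 250 bases before each start were searched on both strands for TGACG, a core of CREB/ATF sites, and ATTGG, the core of NF-Y sites, which together mark the enhanceosome to which Nlrc5 is recruited. TGACG followed by ATTGG on the same strand at a gap of 15 to 25 bases was found in all 4 chain promoters and in none of those of Tap1, Tapbp, Psmb8 and Psmb9. Of all 32851 promoter windows of that length in the table, 0.207% held such a pair. In the stretches below, on the coding strand, the capitals mark the 2 motifs.
B2m, chr2:122147609-122147638, plus strand: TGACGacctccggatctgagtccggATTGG
H2-K1, chr17:34000359-34000388, minus strand: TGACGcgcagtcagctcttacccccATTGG
H2-D1, chr17:35262993-35263022, plus strand: TGACGcgctggcaggtctcactatcATTGG
H2-Q7, chr17:35439091-35439119, plus strand: TGACGtgtaacagttctcacccctATTGG

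Windows start from the RefSeq gene start. Those of H2-D1, Tap1, Tapbp, Psmb8 and Psmb9 lay wholly in sequence that GENCODE M21 counts as exonic, so for these 5 genes another start would give another window. The gap was 20 bases in B2m, H2-K1 and H2-D1 and 19 in H2-Q7. Upstream of it, the 3 heavy chain promoters held the kappaB site of class I promoters, the first run of capitals in the H2-K1 promoter below, which occurred in 0.0852% of all windows. It was followed by TTTCACTT, the second run, which on the other strand reads AANNGAAA, the core recognised by interferon regulatory factors. B2m lacked that kappaB sequence and held AANNGAAA (its first run of capitals) within the core of an interferon-stimulated response element, which is GAAA repeated after a gap of 2 bases. AANNGAAA was found in 21.3% of windows and the longer core in 2.98%, and every window with the longer core holds the shorter one. A match describes letters only. The last 2 runs of capitals are the pair given above.
B2m, chr2:122147437-122147685, plus strand: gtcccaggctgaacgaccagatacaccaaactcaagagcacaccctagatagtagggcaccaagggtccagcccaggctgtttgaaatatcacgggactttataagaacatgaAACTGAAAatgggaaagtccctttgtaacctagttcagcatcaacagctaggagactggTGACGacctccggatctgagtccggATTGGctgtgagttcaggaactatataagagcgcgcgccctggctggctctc
H2-K1, chr17:34000348-34000597, minus strand: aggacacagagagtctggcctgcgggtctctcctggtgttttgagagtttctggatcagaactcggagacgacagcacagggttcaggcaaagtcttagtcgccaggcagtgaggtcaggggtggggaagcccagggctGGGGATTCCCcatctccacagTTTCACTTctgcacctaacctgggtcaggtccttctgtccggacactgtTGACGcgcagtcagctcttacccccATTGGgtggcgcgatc

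Per kilobase of exon (RPKM), B2m was the most abundant member in every group, with group means from 1340 to 7120 RPKM. H2-D1 followed at 336 to 975 RPKM and H2-K1 at 121 to 322 RPKM. Tapbp had group means of 32.4 to 286 RPKM, Psmb8 19.3 to 82.4, Psmb9 14 to 44.5, Tap2 5.85 to 28.7 and Tap1 4.78 to 28.5. H2-Q7 (1.37 to 3.86 RPKM) and Nlrc5 (0.133 to 1.47 RPKM) had the lowest levels. The order of the groups was not the same for the different roles. B2m was highest in flox, whose libraries lay above all 5xFAD libraries, and lowest in the WT group of the Batf3KO experiment, a 5.28-fold span of CPM means. Tap1, Tap2, Tapbp and Nlrc5 had their highest group means in that same WT group. Psmb8 and Psmb9 were highest in the Cre and lowest in the IRF8KO group at 9 months. These groups come from different experiments, so levels set across them are a description.

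**Figure D1:**
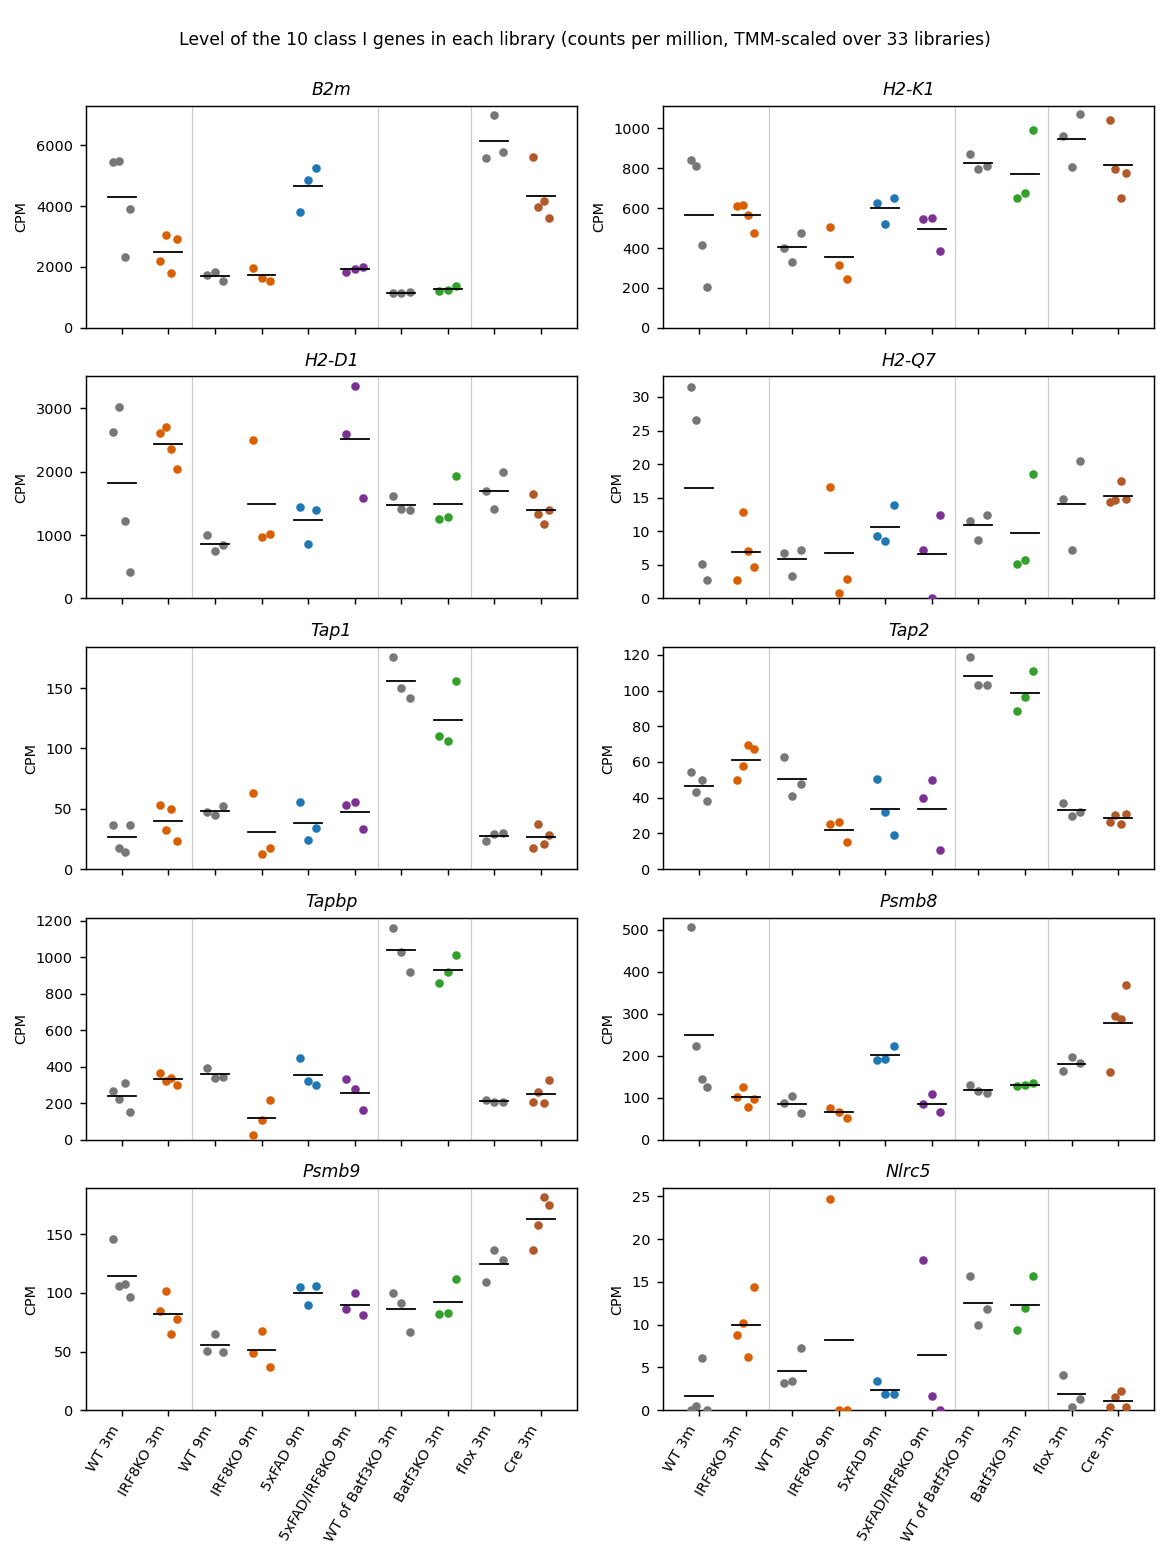
Level of each of the 10 class I genes in every library, in CPM on a linear axis from 0, with the groups along the horizontal axis, grey lines between experiments, points for libraries and black bars for group means. B2m and Psmb8 stand high in 5xFAD among the groups aged 9 months, and Tapbp stands low in IRF8KO at that age.

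In 5xFAD microglia at 9 months, the comparison with WT asks which class I genes move with the amyloid transgenes when Irf8 is present. B2m rose 2.59-fold and was the 1 member of 10 called (quasi-likelihood test of edgeR, Benjamini-Hochberg adjusted p under 0.05, which is the meaning of "called" throughout), where 1.99% of the 14604 genes tested were called and 1.81% were called higher. The summed share of the 10 members was 0.77% ± 0.0893 of gene counts in 5xFAD and 0.514% ± 0.0291 in WT (SD, n = 3 each). In 5 of 10 members, B2m, H2-K1, H2-Q7, Psmb8 and Psmb9, every 5xFAD library lay above every WT library, which was so for 25.1% of all genes tested.

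B2m, the light chain that class I heavy chains need at the surface, stood at 1750, 1820 and 1540 CPM in WT, compared with 3800, 4870 and 5260 in 5xFAD. The groups were far apart, with the lowest 5xFAD library above the highest WT library. The log2 change was 1.37 (SE 0.206, adjusted p = 0.0139). The size lay between 1.02 and 1.49 in all 15 alternatives, but the call was lost on scaling by library size alone (adjusted p = 0.0671). It was also lost without WT replicate 1 (0.138), 2 (0.0579) or 3 (0.108) and without 5xFAD replicate 2 (0.0709) or 3 (0.0923), each an adjusted p.

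The heavy chains did not pass the test. H2-K1 stood at 400, 331 and 477 CPM in WT, compared with 628, 518 and 652 in 5xFAD, a log2 change of 0.50 (SE 0.28, adjusted p = 0.624). H2-D1 stood at 1000, 748 and 846 CPM against 1440, 862 and 1400, a log2 change of 0.44 (SE 0.385, adjusted p = 0.879). H2-K1 did not overlap between the groups and H2-D1 did, and neither was called by edgeR. H2-K1 was called by limma voom (adjusted p = 0.00509). H2-Q7, a nonclassical Qa-2 chain, was at 6.84, 3.4 and 7.26 CPM in WT, compared with 9.28, 8.52 and 13.9 in 5xFAD, with an SE of 1.45 on a log2 change of 0.77. Per length, in a ratio chosen after its values were seen, B2m stood at 3.88, 5.25 and 3.65 times the sum of H2-K1 and H2-D1 in WT and at 5.71, 11.1 and 7.99 times in 5xFAD.

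Psmb8, the immunoproteasome subunit that replaces Psmb5, stood at 87.2, 105 and 63.3 CPM in WT, compared with 190, 192 and 222 in 5xFAD. Its log2 change of 1.16 (SE 0.278) missed the threshold with an adjusted p of 0.0562, although the groups did not overlap. Psmb9, which replaces Psmb6, stood at 50.9, 65 and 49.8 CPM in WT, compared with 105, 89.8 and 106 in 5xFAD (log2 change 0.79, SE 0.292, adjusted p = 0.269). Both subunits thus lay above WT in 3 of 3 libraries without passing the main test. Psmb8 was called in 4 of 15 alternatives, namely DESeq2, limma voom, all 33 libraries in one model and only the groups named. Psmb9 was called in 3 of these, not by DESeq2. All of these settings also called more of all genes than the main test. The transporter and loading genes gave log2 changes of -0.41 for Tap1, -0.64 for Tap2 and -0.09 for Tapbp, with adjusted p-values of 0.879 or more, and their libraries overlapped. Tap2 was called, as lower, with only the groups named (adjusted p = 0.0265). Nlrc5 was at 3.16, 3.4 and 7.26 CPM in WT, compared with 3.42, 1.87 and 1.91 in 5xFAD.

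Loss of Irf8 in the 5xFAD background was read from 5xFAD/IRF8KO against 5xFAD. B2m and Psmb8 fell, and were the 2 members of 10 called, both lower, where 27.8% of genes were called and 9.72% were called lower. Over both directions, the share of members called is near that of all genes. These 2 members were also the ones lower without overlap (21.5% of genes were), and H2-D1 was the 1 member higher without overlap (27% of genes were).

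B2m had 1840, 1920 and 1990 CPM in 5xFAD/IRF8KO, all below the lowest 5xFAD library at 3800 CPM and close to the WT range of 1540 to 1820 CPM. The log2 change was -1.38 (SE 0.206, adjusted p = 0.000448). Psmb8 had 85, 108 and 65 CPM, all below the lowest 5xFAD library at 190 CPM, with a log2 change of -1.33 (SE 0.277, adjusted p = 0.00408). Both calls held in all 15 alternatives, each library left out in turn included, with B2m between -1.5 and -1.28 and Psmb8 between -1.54 and -1.17.

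H2-D1 was 2600, 3360 and 1580 CPM in 5xFAD/IRF8KO against 1440, 862 and 1400 CPM in 5xFAD. Every 5xFAD/IRF8KO library lay above every 5xFAD library, and the log2 change was 0.92 (SE 0.388, adjusted p = 0.0973). It was called with no filter (adjusted p = 0.0226) and by limma voom (0.0335). H2-K1, the other classical heavy chain, had 547, 551 and 386 CPM against 628, 518 and 652 CPM (log2 change -0.38, SE 0.279, adjusted p = 0.341), with overlap. Psmb9 stayed near its 5xFAD level at 86.7, 100 and 81.3 CPM (log2 change -0.27, SE 0.287, adjusted p = 0.534). The 2 immunoproteasome genes therefore parted here, although the difference between them was not tested. Tap1, Tap2 and Tapbp had log2 changes of 0.21, -0.14 and -0.58 with adjusted p-values of 0.481 or more. H2-Q7 at 7.21, 0 and 12.5 CPM and Nlrc5 at 17.6, 1.62 and 0 CPM varied too widely among the 5xFAD/IRF8KO libraries for a direction to be read.

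The same 5xFAD/IRF8KO libraries were set against IRF8KO, which gives the response to the transgenes on the IRF8KO background. No member was called by edgeR (0 of 10, against 0.164% of all genes, with 1853 of 14604 at an unadjusted p under 0.05). B2m had a log2 change of 0.14 (SE 0.202, adjusted p = 0.853) and Psmb8 of 0.38 (SE 0.273, adjusted p = 0.635). Psmb9, at 49.2, 67.8 and 36.6 CPM in IRF8KO, was the 1 member whose groups did not overlap (log2 change 0.78, adjusted p = 0.267), as 5.58% of genes were higher in that way. It was called with all 33 libraries in one model (adjusted p = 0.0407). Whether the response to 5xFAD differed between the WT and IRF8KO backgrounds was tested by the interaction. There B2m had a log2 value of -1.23 (SE 0.287) and an adjusted p of 0.0787. No member passed (background 0.438%). DESeq2 called the B2m interaction (adjusted p = 0.00149), as did one model of all 33 libraries (0.028), and over its alternatives the adjusted p ran from 0.00149 to 0.273.

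**Figure D2:**
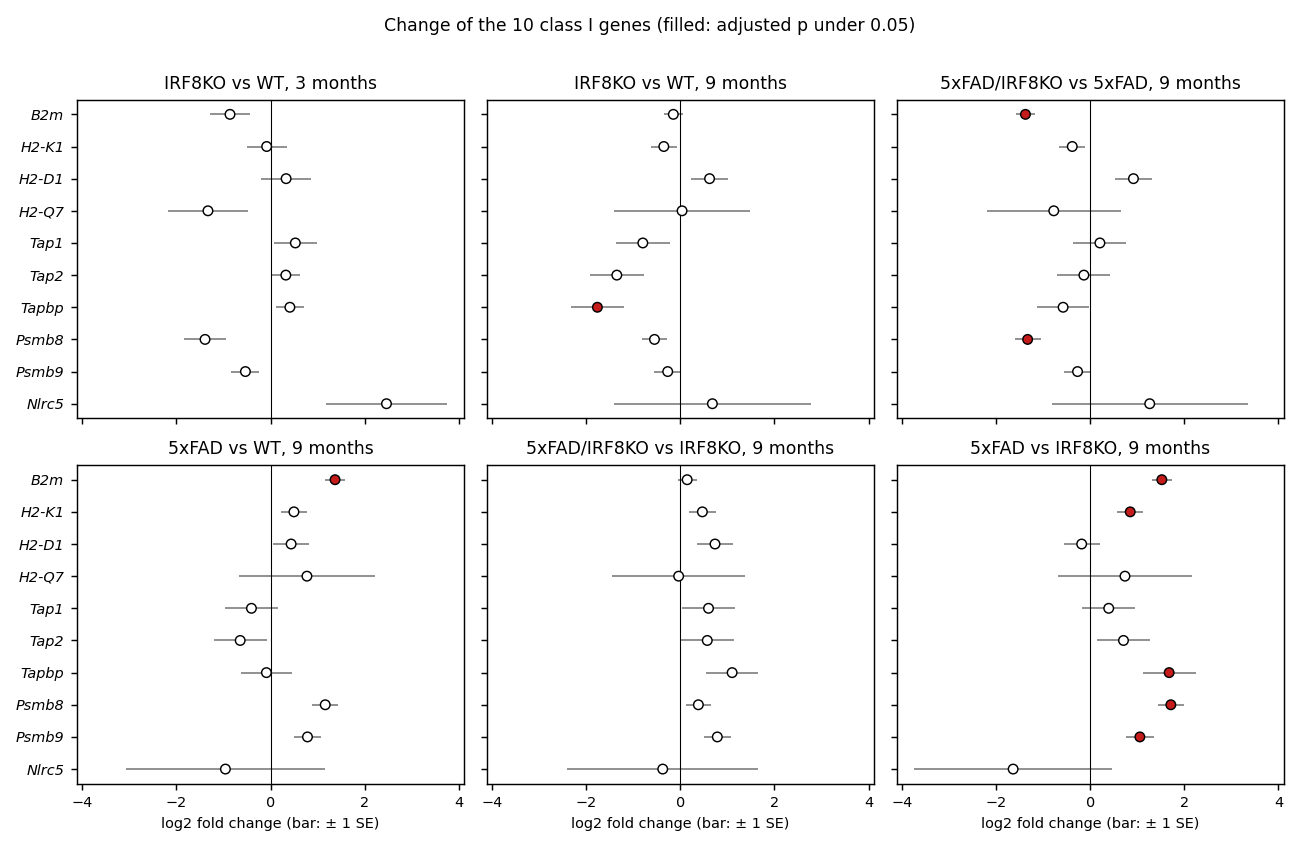
Log2 fold change of the 10 genes in 6 comparisons of the germline knockout and 5xFAD, with bars of 1 SE to each side and filled points for an adjusted p under 0.05. B2m and Psmb8 are filled in both comparisons of 5xFAD with an IRF8KO group, and Nlrc5 and H2-Q7 have the widest bars at 9 months.

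Germline loss of Irf8 without the transgenes was read at both ages. At 9 months 1 of 10 members was called, where 28.3% of genes were called and 8.68% were called lower. The gene was Tapbp, which encodes tapasin, the bridge between the transporter and the empty class I molecule. It stood at 392, 340 and 344 CPM in WT, compared with 25, 108 and 220 in the knockout, so that the groups did not overlap but the 3 knockout libraries spread widely. The log2 change was -1.76 (SE 0.566, adjusted p = 0.0349). The call was lost without WT replicate 1 (adjusted p = 0.0872), 2 (0.0754) or 3 (0.0701), without IRF8KO replicate 2 (0.0771), with only the 2 groups fitted (0.112) and with the replicate block (0.0621). Without IRF8KO replicate 3 the log2 change was -2.69. Antisense Gm19412 shares 904 exonic bases with Tapbp, 24.9% of its exons, and the counts ignore strand.

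Tap2, one chain of the peptide transporter, was the other member without overlap, at 62.5, 40.8 and 47.7 CPM in WT, compared with 25.4, 26.1 and 14.9 in the knockout (log2 change -1.35, SE 0.574, adjusted p = 0.0982). Over all genes tested, 19.3% were lower without overlap. Its partner Tap1 was at 47.4, 44.6 and 51.9 CPM against 63.2, 12.5 and 17.5 CPM, with 1 knockout library above and 2 below WT. Without IRF8KO replicate 1, Tap1 (log2 change -1.94, adjusted p = 0.012) and H2-K1 (-0.80, 0.0418) were called as well. B2m stood at 1970, 1640 and 1550 CPM in IRF8KO against 1540 to 1820 CPM in WT (log2 change -0.15, SE 0.202, adjusted p = 0.631). Psmb8 (log2 change -0.55, adjusted p = 0.156), Psmb9 (-0.27, 0.535) and H2-K1 (-0.35, 0.384) overlapped with WT. H2-D1 was 2500, 976 and 1020 CPM against 748 to 1000 CPM (log2 change 0.62, adjusted p = 0.256). Nlrc5 had 24.7 CPM in 1 knockout library and 0 in the other 2.

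At 3 months no member was called (0 of 10, against 7.39% of 13121 genes, with 3043 at an unadjusted p under 0.05). Psmb8 was closest, at 506, 224, 144 and 125 CPM in WT, compared with 102, 125, 78.8 and 96.3 in the knockout. The highest knockout library was level with the lowest WT library, and WT replicate 1 stood far above the rest. The log2 change was -1.39 (SE 0.448, adjusted p = 0.0769), or -0.72 without WT replicate 1. The gene was called in 5 of 16 alternatives, among them without WT replicate 4 (adjusted p = 0.0415) and by DESeq2 (0.0174). B2m stood at 5460, 5480, 2330 and 3910 CPM in WT, compared with 2210, 3040, 1800 and 2920 in the knockout (log2 change -0.86, SE 0.422, adjusted p = 0.244), with overlap through WT replicate 3. It was called in 2 of 16 alternatives, limma voom and all 33 libraries in one model.

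Nlrc5 was the 1 member at 3 months without overlap, and it was higher in the knockout, which was so for 11.7% of all genes. It stood at 0, 0.524, 6.06 and 0 CPM in WT, compared with 8.81, 10.2, 6.21 and 14.4 in the knockout. The lowest knockout library was barely above WT replicate 3, and the log2 change of 2.46 (SE 1.28) had an adjusted p of 0.272, or 0.0401 without that WT library. Tapbp, low at 9 months, was at 269, 223, 310 and 152 CPM in WT at 3 months, compared with 368, 320, 337 and 302 in the knockout (log2 change 0.41, SE 0.299, adjusted p = 0.447). The difference between the knockout effects at 9 and 3 months was therefore tested, with 1 of 10 members called where 23.5% of genes were, and 5.73% were called lower. For Tapbp it was -2.09 in log2 (SE 0.629, adjusted p = 0.0199), and it was not called without WT at 9 months replicate 1 (0.0523). Tap2 had -1.62 (SE 0.62, adjusted p = 0.0632). The 2 ages came from different experiments, so age and experiment cannot be told apart.

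5xFAD and loss of Irf8 were compared directly at 9 months, since both were read against the same WT libraries above. With 5xFAD against IRF8KO, 5 of 10 members were called, all higher in 5xFAD, where 29.5% of genes were called and 10.5% were called higher. These were B2m with a log2 difference of 1.52 (SE 0.207, adjusted p = 0.000207), Psmb8 with 1.71 (SE 0.28, adjusted p = 0.000801), Psmb9 with 1.05 (SE 0.291, adjusted p = 0.0174), Tapbp with 1.68 (SE 0.563, adjusted p = 0.0415) and H2-K1 with 0.85 (SE 0.28, adjusted p = 0.0387). In all 5, the lowest 5xFAD library lay above the highest IRF8KO library, which was so for 22.8% of genes. B2m and Psmb8 were called in all 15 alternatives.

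The other calls of that comparison were less firm. Psmb9 was called in 13 of 15 alternatives and lost without 5xFAD replicate 1 (adjusted p = 0.0693) and with no filter on low counts (0.103). Tapbp was called in 7 and lost without IRF8KO replicate 2 (0.0931) or 5xFAD replicate 1 (0.128), 2 (0.0821) or 3 (0.0636). It was also lost with RLE (0.0543), library size alone (0.0574), only the groups named (0.134) and the replicate block (0.0704). H2-K1 was called in 6 and lost without IRF8KO replicate 2 (0.0743) or 3 (0.0753) or 5xFAD replicate 1 (0.11), 2 (0.0664) or 3 (0.0837), and with RLE (0.0547), all 33 libraries (0.0717), only the groups named (0.0921) and the Y-linked covariate (0.0585). Without IRF8KO replicate 3 the Tapbp difference was 2.57, and without IRF8KO replicate 1 Tap1 was called too (log2 difference 1.49, adjusted p = 0.0339). H2-D1 stood apart from H2-K1 here too, with a log2 difference of -0.18 (SE 0.384, adjusted p = 0.77).

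The balance of the 2 classical heavy chains, which carry most peptides to the surface, was followed as the ratio of H2-D1 to H2-K1 per kilobase. The ratio needs no scaling between libraries, was chosen after its values were seen and is given without a test. At 9 months it was 2.86, 2.57 and 2.02 in WT and 2.62, 1.89 and 2.45 in 5xFAD. It was 5.65, 3.52 and 4.77 in IRF8KO and 5.42, 6.94 and 4.67 in 5xFAD/IRF8KO, so that all 6 knockout libraries lay above the other 6. At 3 months it was 3.58, 4.25, 3.35 and 2.33 in WT and 4.87, 5.01, 4.75 and 4.91 in IRF8KO, again without overlap. In the Batf3KO experiment it was 1.97 to 2.11 in WT and 2.15 to 2.22 in the knockout. In the conditional experiment it was 1.99 to 2.13 in flox and 1.81 to 2.05 in Cre.

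**Figure D3:**
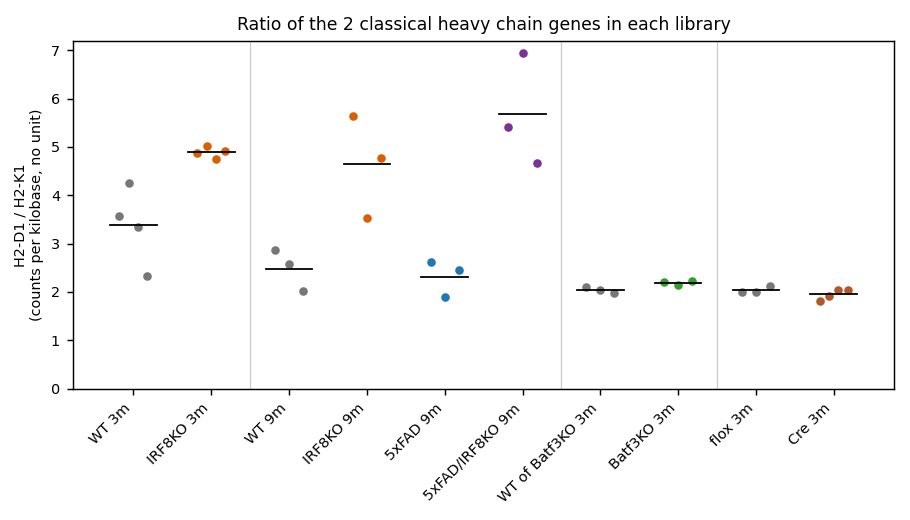
Ratio of H2-D1 to H2-K1 counts per kilobase of exon in every library, on a linear axis from 0, by group, with points for libraries and black bars for group means. The germline IRF8KO and 5xFAD/IRF8KO libraries lie between 3.52 and 6.94, and all libraries of the Batf3KO and conditional experiments lie between 1.81 and 2.22.

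The ratio was high in the same groups that held many neutrophil transcripts. Within 5xFAD/IRF8KO the neutrophil share and the ratio had the same order, with shares of 12.8%, 14.8% and 8.24% beside ratios of 5.42, 6.94 and 4.67. Within IRF8KO at either age and within WT at 3 months they did not share an order. In that WT group replicate 4 had the highest share (5.4%) and the lowest ratio (2.33), and replicate 3 had the lowest share (0.867%) and a ratio of 3.35. Reads mapping to several places, which are not counted, made up 12.2% to 35.4% of reads in the 9-month IRF8KO groups and 4.86% to 6.85% in WT and 5xFAD. They made up 13.2% to 29.8% at 3 months in both germline groups. The 2 genes are close paralogs, so both measures stand beside the ratio, and their part in it was not tested. Within groups H2-K1 and H2-D1 moved together across libraries, with r = 0.954 over 33 libraries centred on their group means, the highest of the 45 pairs of members. The median pair had r = 0.256 and the lowest, Tap1 with Tapbp, -0.352, in libraries that share their depth and cell content.

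The conditional experiment asks what follows when Irf8 is deleted after birth. No member was called in Cre against flox, nor was any gene (0% of 15512 by edgeR, with 1407 at an unadjusted p under 0.05), in a comparison that includes the library labelled Cre replicate 1. Psmb8 stood at 163, 197 and 183 CPM in flox, compared with 162, 295, 288 and 369 in the Cre libraries. Replicate 1 lay just below the lowest flox library, and replicates 2 to 4 lay above all 3. The log2 change was 0.66 (SE 0.252, adjusted p = 0.421) with all 4, and 0.86 (adjusted p = 0.00262) without replicate 1, when 952 of 15264 genes and this 1 member were called.

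Psmb9 stood at 109, 137 and 128 CPM in flox, compared with 137, 158, 182 and 175 in Cre, the 1 member without overlap before rounding (log2 change 0.42, SE 0.175, adjusted p = 0.479), against 2.98% of genes higher without overlap. B2m stood at 5580, 7000 and 5790 CPM in flox, compared with 5600, 3970, 4160 and 3600 in Cre, where replicates 2 to 4 lay below all flox libraries (log2 change -0.48, SE 0.198, adjusted p = 0.473). H2-K1 (log2 change -0.19), H2-D1 (-0.26), H2-Q7 (0.15), Tap1 (-0.02), Tap2 (-0.18), Tapbp (0.27) and Nlrc5 (-0.72) had adjusted p-values of 0.785 or more. The neutrophil markers summed to 0.00616% in flox and 0.00355% in Cre, and the microglial markers to 4.84% and 4.38%. The 10 lymphocyte markers summed to 0.0105% to 0.0145% in flox and to 0.0366% to 0.0387% in Cre replicates 2 to 4, with 0.0166% in replicate 1. The 8 border macrophage markers summed to 0.0121% to 0.0168% in flox and to 0.000742% to 0.00121% in Cre replicates 2 to 4, with 0.0212% in replicate 1. Cre replicates 2 to 4 are also the libraries in which Psmb8 and B2m stood apart from flox, and the part of such cells in those values was not tested.

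**Figure D4:**
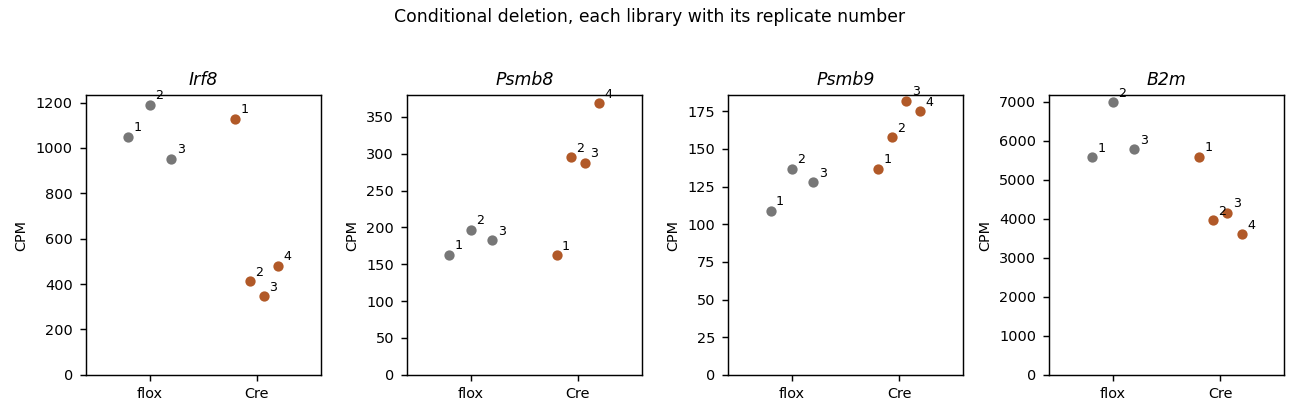
Level of Irf8, Psmb8, Psmb9 and B2m in CPM in the 3 flox and 4 Cre libraries, on linear axes from 0, each point marked with its replicate number. The library labelled Cre replicate 1 lies with the flox libraries for Irf8, Psmb8 and B2m, and replicates 2 to 4 lie apart from them.

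The conditional and germline effects at 3 months were set against each other by a test of their difference, in which 1 of 10 members was called where 7.04% of genes were, and 4.37% were called higher. Psmb8 had a log2 difference of 2.12 (SE 0.566, adjusted p = 0.0305), since it was higher in Cre and lower in IRF8KO than in the respective controls. The call was lost without any single one of IRF8KO replicates 1 (adjusted p = 0.0551), 3 (0.0562) and 4 (0.0501), flox replicates 1 (0.102), 2 (0.0728) and 3 (0.085) and Cre replicates 2 (0.0568), 3 (0.055) and 4 (0.0665), and with the replicate block (0.103). Without Cre replicate 1 it held. Psmb9 had 1.03 (SE 0.335, adjusted p = 0.0716). The 2 effects came from different experiments, and experiment and kind of deletion cannot be told apart.

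Loss of Batf3, a transcription factor known for its role in dendritic cells, left no member called (0 of 10, against 3.83% of 13128 genes by edgeR, with 2415 at an unadjusted p under 0.05). These libraries were among the deepest. B2m stood at 1150, 1140 and 1170 CPM in WT, compared with 1210, 1230 and 1370 in the knockout, the 1 member without overlap (8.24% of genes were higher in that way), with a log2 change of 0.19 (SE 0.0673, adjusted p = 0.143). Log2 changes of the other 9 members lay between -0.27 for Tap1 (SE 0.126, adjusted p = 0.268) and 0.19 for Psmb8 (SE 0.083, adjusted p = 0.239).

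Other genes of the pathway were counted in 4 lists, and class II genes in another. Among 13 further class I and class I-like chains, none was called in 5xFAD against WT, where 1.99% of all genes were. In 5xFAD/IRF8KO against 5xFAD, 4 of 12 tested fell and none rose, where 27.8% of all genes were called and 9.72% called lower. H2-M3, which presents formylated peptides, was 121 to 153 CPM in 5xFAD and 32 to 41.3 CPM in 5xFAD/IRF8KO (log2 change -1.99, adjusted p = 0.000186). Fcgrt, the neonatal Fc receptor chain, and Hfe, an iron regulator, both of which pair with B2m, fell by 1.41 and 1.34 on the log2 scale (adjusted p = 0.0117 and 0.0163). At 9 months IRF8KO had 3 of 12 called, all lower than WT, where 28.3% of all genes were called and 8.68% called lower. They were H2-Q6 at 7.65 to 18.7 CPM in WT against 0 to 0.77 CPM, H2-M3 (log2 change -1.95, adjusted p = 0.000219) and Hfe (-1.64, 0.00603). H2-Q6 is a near copy of H2-Q7, so the split of reads between them is uncertain.

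Of 8 other proteasome genes, Psmb6, the constitutive subunit that Psmb9 replaces, was the 1 called in 5xFAD against WT, where 1.81% of all genes were called higher. It went from 129 to 180 CPM in WT to 341 to 421 CPM (log2 change 1.29, adjusted p = 0.016). In every 5xFAD library 7 of the 8 lay above WT, as did 25.1% of all genes. In IRF8KO at 9 months 3 of the 8 rose, where 19.6% of all genes were called higher, namely Psme3 (log2 change 2.12), Psmb7 (1.58) and Psmb5 (1.30), with adjusted p-values of 0.00405, 0.0478 and 0.0165, and none fell. In 5xFAD/IRF8KO against 5xFAD, Psmb10, another inducible subunit, fell from 138 to 154 CPM to 32.4 to 72.4 CPM (log2 change -1.54, adjusted p = 0.0126). Psmb6 fell too (-0.87, 0.011), and the activator gene Psme3 rose (1.27, 0.0451). These were the 3 of the 8 called there, where 27.8% of all genes were called and 9.72% called lower. The per-length ratio of Psmb8, Psmb9 and Psmb10 to Psmb5, Psmb6 and Psmb7, also given without a test, was 0.742, 0.734 and 0.735 in WT and 0.68, 0.564 and 0.602 in 5xFAD. It was 0.229, 0.351 and 0.435 in IRF8KO and 0.454, 0.687 and 0.287 in 5xFAD/IRF8KO, all at 9 months. In the germline groups at 3 months the ratio was not lower in the knockout, at 0.347 to 0.487 in WT and 0.45 to 0.485 in IRF8KO. It was 0.64 to 0.749 in flox and 0.639 to 0.868 in Cre. At 3 months the IRF8KO group had 2 of the 8 called, both lower, where 7.39% of all genes were called and 3.24% called lower. They were Pomp, the assembly chaperone (log2 change -1.43, adjusted p = 0.0207), and Psmb6 (-1.27, 0.0321).

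Of 8 loading and trimming genes, Calr, the lectin chaperone calreticulin of the loading complex, fell in both 9-month comparisons that remove Irf8, by 1.24 on the log2 scale in IRF8KO (adjusted p = 0.00986) and by 0.98 in 5xFAD/IRF8KO (0.0299). Sec61b, a translocon subunit, rose in IRF8KO (1.75, 0.00343). Of the 8, 2 were called in IRF8KO at 9 months, 1 higher and 1 lower, where 28.3% of all genes were called. In 5xFAD/IRF8KO against 5xFAD 1 of the 8 was called, where 27.8% of all genes were. The 20 regulators and interferon signalling genes had 4 called in IRF8KO at 9 months, all lower. Of all genes, 28.3% were called there and 8.68% called lower. In 5xFAD/IRF8KO against 5xFAD the 20 genes had 8 called, 3 higher and 5 lower. Of all genes, 27.8% were called there, 18% higher and 9.72% lower. Ifngr1, the ligand-binding chain of the interferon gamma receptor, fell by 1.69 in IRF8KO (adjusted p = 0.00128) and by 1.56 in 5xFAD/IRF8KO (0.00225). Jak1, a kinase of interferon receptors, was higher in 5xFAD/IRF8KO than in 5xFAD (log2 change 1.53, adjusted p = 0.0171), and so was the NF-Y subunit gene Nfyb (adjusted p = 0.0151). Rfx5 and Nfya, which belong to the complex on class I promoters, were at 4.09 to 8.61 and 6.19 to 12 CPM in 5xFAD and at 0 to 0.255 and 0.0893 to 0.992 CPM in 5xFAD/IRF8KO (adjusted p = 0.0094 and 0.0149). At 3 months Ifnar1, a chain of the type I interferon receptor, was higher in IRF8KO (log2 change 2.16, adjusted p = 0.00517).

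The 8 class II genes present material taken up from outside the cell. Of 7 tested, 6 fell in IRF8KO at 9 months, where 8.68% of all genes were called lower, with Cd74, the invariant chain, at 60.5 to 108 CPM in WT and 1.03 to 6.85 CPM in the knockout (adjusted p = 0.0292). None of the 7 was called in 5xFAD against WT, where 1.99% of all genes were. In 5xFAD/IRF8KO against 5xFAD 3 of 7 fell (9.72% of all genes were called lower), among them H2-DMa, a class II loading gene, at 442 to 650 CPM against 11.7 to 18.2 CPM (log2 change -5.33, adjusted p = 1.09e-05). In 5xFAD/IRF8KO against IRF8KO 1 of 7 was called, where 0.164% of all genes were: H2-Aa, a class II alpha chain, stood at 10.3 to 15.7 CPM against 0 to 0.123 CPM (adjusted p = 0.0312). The median log2 change was -3.78 for the class II genes and -0.31 for the 10 class I members in IRF8KO at 9 months, beside 0.25 over all genes tested. In Batf3KO, 2 genes of these 5 lists were called, where 3.83% of all genes were. Fcgrt fell (log2 change -0.62, adjusted p = 0.000782), 1 of 10 further class I and class I-like chains tested. Calr rose (0.30, 0.0297), 1 of 8 loading and trimming genes.

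Genes outside these lists were ranked by likeness to the members, as the Pearson correlation of log2 CPM with the mean of the members' standardised values over 33 libraries, centred on experiment, among 11119 genes. The highest were Tradd (r = 0.872), Ruvbl2 (0.871), Spi1 (0.866), Ddost (0.855), Rhog (0.849), Rnf130 (0.847), Sharpin (0.846) and Coro1b (0.838). Of the members themselves, H2-K1 followed that mean most closely (0.858) and Nlrc5 least (0.387). The libraries share depth and cell content within groups, so these values describe the data set only.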

How the data were processed

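Per the labels' protocols, cDNA of sorted microglia went through 15 cycles of amplification (SMART-Seq v4) before Nextera XT tagging. The submitters' processing notes name bcl2fastq, STAR 2.5.2b, Picard 2.17.11, Subread, featureCounts and build mm10, without roles. Each deposited file holds raw gene counts, in 3 columns for the 2 strand settings and neither, and the unstranded count was used because the kit does not mark strand. Reads mapping to several places are outside these counts. The annotation release was not given in the sources used here. Of 54146 identifiers, 54079 were matched to GENCODE M21 when the version was ignored, for names and exon lengths.

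Counts were tested with edgeR 4.0.16 (quasi-likelihood, filterByExpr, TMM, Benjamini-Hochberg over all genes tested, threshold 0.05) in R 4.3.3, in 11 comparisons. Each fit held the groups of its experiment, and both experiments for the differences of effects. DESeq2 1.42.0, limma 3.58.1, other scalings, no filter, other sample sets, a replicate block, a Y-linked covariate and leaving out each library were the alternatives. Levels are CPM with TMM over all 33 libraries, and RPKM divides them by exon length. The fits were tested on simulated data with known changes. Few of these changes were called in IRF8KO at 3 months and in 5xFAD against WT. A member not called in those 2 comparisons is therefore not shown to be unchanged.

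The members, lists and tests were chosen with earlier results of these data known. All 10 members are named in every comparison. Genes of the wider lists were named from the 3 largest rises and 3 largest falls per list and comparison among those called, with at least 5 CPM on average in the higher group, and 1 gene that this rule names is not reported here. Gene counts per library ran from 605376 to 18357762. No replicates agreed within sampling noise (chi-square per gene 2.31 to 232 over 39 pairs). Same-numbered libraries had correlations of their deviations from -0.284 to 0.223, and their numbers were not taken as pairs.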

Additional observations from a re-analysis of the deposited data

Results flagged for a closer look

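In groups of 4 libraries, 2 of 30 combinations of member and group held a library far from the others, where chance gives about 1 in 20. H2-Q7 had 17.5 CPM in Cre replicate 3, with the other Cre libraries at 14.4 to 14.8 CPM. Nlrc5 had 6.06 CPM in WT replicate 3 at 3 months, with the others at 0 to 0.524 CPM, and the lowest knockout library had 6.21 CPM.

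Of 30 differences between effects of the same kind that were tested, 2 passed. Over all genes tested, 0.438% passed in the interaction, 23.5% in 9 minus 3 months and 7.04% in Cre minus IRF8KO. For Tapbp the IRF8KO effect at 9 months minus that at 3 months was -2.09 in log2. For Psmb8 the Cre effect minus the IRF8KO effect at 3 months was 2.12 in log2. In both cases the effects come from different experiments, which cannot be told apart from age or from the kind of deletion.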

How the results depend on the processing

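Of 1840 values of single members under the alternatives, 1645 kept direction and side of the threshold, 42 lost and 46 gained a call, and 107 changed sign or reached 0. None of those 107 was called before or after, and the cause was not tested. B2m and Psmb8 kept their calls in 5xFAD/IRF8KO against 5xFAD and in 5xFAD against IRF8KO in all 15 alternatives. Scaling by library size alone moved the median log2 of all genes by 0.112 (IRF8KO at 3 months), -0.382 (IRF8KO at 9 months), -0.223 (5xFAD against WT), -0.116 (5xFAD/IRF8KO against 5xFAD), 0.244 (interaction), -0.566 (9 minus 3 months) and -0.238 (Cre minus IRF8KO). Genome-wide calls in 5xFAD against WT were 290, and 2 to 102 with a library left out, 25 on library size alone and 4546 with only the groups named.

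Members called by setting were as follows. Genes called of all genes tested stand in brackets. IRF8KO at 3 months had 0 (970 of 13121), and 1 with no filter (1655 of 27957) or DESeq2 (2049 of 13121), 2 with voom (1680 of 13121) or all 33 libraries (3300 of 18534). IRF8KO at 9 months had 1 (4136 of 14604), and 3 on library size alone (4161 of 14604), 2 with DESeq2 (5079 of 14604) or all 33 libraries (6836 of 18534), 0 with only the groups named (3731 of 12781). 5xFAD against WT had 1 (290 of 14604), and 0 on library size alone (25 of 14604), 2 with DESeq2 (900 of 14604), 4 with voom (3821 of 14604) or only the groups named (4546 of 10452), 3 with all 33 libraries (806 of 18534). 5xFAD/IRF8KO against 5xFAD had 2 (4054 of 14604), and 3 with no filter (3733 of 29345) or voom (4367 of 14604). 5xFAD/IRF8KO against IRF8KO had 0, and 1 with all 33 libraries. The interaction had 0, and 1 with DESeq2 or all 33 libraries. 5xFAD against IRF8KO had 5, as with DESeq2 and voom, and 3 with RLE or only the groups named. The other settings that kept all libraries gave a number between these. Batf3KO had 0, and 1 with voom. The 9 minus 3 month difference had 1, 2 on library size alone and with DESeq2, voom, all 33 libraries or only the groups named, and 3 with the Y-linked covariate. Cre minus IRF8KO had 1, and 2 with DESeq2 or voom. Over the alternatives that kept all libraries of the groups, genes called ran from 0 to 1452 (5xFAD/IRF8KO against IRF8KO) and 1 to 1082 (interaction). They ran from 3433 to 7127 (5xFAD against IRF8KO), 10 to 998 (Batf3KO), 3054 to 6342 (9 minus 3 months) and 293 to 2162 (Cre minus IRF8KO). With a library left out the counts of members ran from 0 to 1 (IRF8KO at 3 months, 5xFAD against WT, Batf3KO, Cre), 0 to 3 (IRF8KO at 9 months and 9 minus 3 months), 2 to 6 (5xFAD against IRF8KO) and 0 to 2 (Cre minus IRF8KO). Genes called then ran from 305 to 1128 (IRF8KO at 3 months), 2 to 102 (5xFAD against WT), 219 to 596 (Batf3KO) and 0 to 952 (Cre). They ran from 2266 to 4126 (IRF8KO at 9 months), 2289 to 3980 (9 minus 3 months), 2437 to 4487 (5xFAD against IRF8KO) and 471 to 1780 (Cre minus IRF8KO).

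With the replicate block, 0 members were called in IRF8KO at 9 months and in Cre minus IRF8KO, and Tapbp lost its call in 5xFAD against IRF8KO (adjusted p = 0.0704). Signs changed under the block for Nlrc5 (1.37 in 5xFAD against IRF8KO, -0.73 in 5xFAD/IRF8KO against 5xFAD, 0.63 in 5xFAD/IRF8KO against IRF8KO, -2.94 in IRF8KO at 9 months), H2-K1 (0.01 interaction, 0.13 IRF8KO at 3 months), H2-Q7 (-0.54, IRF8KO at 9 months) and H2-D1 (-0.08, 9 minus 3 months). Genes called under the block went from 1223 to 293 in Cre minus IRF8KO, 290 to 105 in 5xFAD against WT, 503 to 216 in Batf3KO, 64 to 9 in the interaction and 24 to 0 in 5xFAD/IRF8KO against IRF8KO. Same-numbered libraries matched best in 3 of 4 cases at 3 months, 4 of 18 at 9 months, 0 of 3 in Batf3KO and 1 of 3 in the conditional experiment.

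Other sign changes, in log2, were these. With all 33 libraries: Nlrc5 -0.02 (Batf3KO), H2-K1 0 (IRF8KO at 3 months), B2m 0.01 (IRF8KO at 9 months). With DESeq2 and RLE: Psmb9 0 (interaction). On library size alone: H2-K1 0.27 and Psmb9 0.31 (interaction), H2-K1 0.06 (IRF8KO at 3 months), H2-Q7 -0.34 (IRF8KO at 9 months), H2-D1 -0.24 and Psmb9 -0.29 (9 minus 3 months). With voom: Nlrc5 3.39 (5xFAD against IRF8KO), -0.87 (5xFAD/IRF8KO against 5xFAD), 2.52 (5xFAD/IRF8KO against IRF8KO) and -4.29 (IRF8KO at 9 months), H2-D1 -0.01 (Batf3KO), Tap1 0.01 (Cre), H2-K1 0.11 and Psmb9 0.24 (interaction), H2-Q7 -0.93 (IRF8KO at 9 months). With no filter: H2-Q7 0 (5xFAD/IRF8KO against IRF8KO) and -0.03 (IRF8KO at 9 months), H2-K1 0.03 and Psmb9 0.06 (interaction). With the Y-linked covariate, which could not be fitted for Batf3KO and Cre: Nlrc5 0.39 (5xFAD against IRF8KO), 3.88 (5xFAD/IRF8KO against IRF8KO) and -3.58 (IRF8KO at 9 months), Tapbp 0.84 (5xFAD against WT), Tap2 0.41 (5xFAD/IRF8KO against 5xFAD), H2-Q7 0.88 (5xFAD/IRF8KO against IRF8KO), 0.7 (interaction) and -0.88 (IRF8KO at 9 months), H2-K1 0.32 (interaction) and 0.19 (IRF8KO at 3 months), H2-D1 -0.15 (9 minus 3 months).

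With a library left out, the log2 values of members that changed sign ran as follows. IRF8KO at 3 months: H2-K1 -0.37 to 0.24, H2-D1 0 to 0.7. IRF8KO at 9 months: H2-D1 -0.06 to 0.72, H2-Q7 -1.9 to 0.43, Nlrc5 -8.27 to 1.14. 5xFAD against WT: Tapbp -0.3 to 0. 5xFAD/IRF8KO against 5xFAD: Tap1 -0.05 to 0.61, Tap2 -0.56 to 0.29, Nlrc5 -1.67 to 1.84. 5xFAD/IRF8KO against IRF8KO: H2-Q7 -0.92 to 1.77, Nlrc5 -3.29 to 8.45. Interaction: H2-K1 -0.2 to 0.34, H2-Q7 -1.69 to 1.04, Psmb9 -0.16 to 0.31, Nlrc5 -2.35 to 9.46. 5xFAD against IRF8KO: H2-D1 -0.33 to 0.46, Tap1 -0.01 to 1.49, Nlrc5 -2.14 to 7.25. Batf3KO: H2-K1 -0.25 to 0.06, H2-D1 -0.15 to 0.16, H2-Q7 -0.93 to 0.2, Nlrc5 -0.16 to 0.21. Cre: H2-Q7 -0.16 to 0.5, Tap1 -0.25 to 0.14, Nlrc5 -1.25 to 0.52. 9 minus 3 months: H2-K1 -0.54 to 0.1, H2-D1 -0.21 to 0.72, H2-Q7 -0.36 to 1.98. Cre minus IRF8KO: H2-K1 -0.26 to 0.27, Tapbp -0.21 to 0.15. H2-Q7 and Nlrc5, the members with the lowest levels, thus had no stable direction in several comparisons. Both kept their sign in all alternatives of IRF8KO at 3 months (16), 5xFAD against WT (15) and Cre minus IRF8KO (23). So did H2-Q7 in 5xFAD/IRF8KO against 5xFAD and in 5xFAD against IRF8KO, and Nlrc5 in 9 minus 3 months. Neither gene was called in any of the 11 comparisons.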
